A study of Mus musculus with 6 samples.

Results

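The genes described here are the protein-coding genes of the distal end of mouse chromosome 7 around Prr33, the gene targeted by the guide RNA. They were chosen by position, gene type and name, with no measured value in the rule: a start (lowest coordinate) at or beyond base 141300000 of chromosome 7 in the GRCm38 (mm10) build and a protein-coding label in the count table. The 12 names set aside by the selection and all names starting with Rpl, Rps or Mrp were left out, which removed 14 of the 84 protein-coding genes in the window. The 70 remaining genes, out of 55804 in the table, are called the members. Prr33 is 1 of them, 41 start on its centromeric side and 28 on its telomeric side.

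The libraries came from C2C12, an immortalised mouse myoblast line that fuses into multinucleated myotubes when serum is withdrawn. Prr33-gRNA cells carried a CRISPR/Cas9 guide RNA against Prr33, described by the submitters as a knockdown line made to study the role of the gene in myoblast differentiation. Ctrl-gRNA cells carried a control guide, and the genotype entered for their libraries is WT. Both groups were harvested after 3 days in differentiation medium containing horse serum, and 3 libraries of total RNA were available per group. No more than 1 line per guide is described, so an effect of the guide and a difference between lines cannot be told apart. Nothing states that libraries of a group are separate cultures, so p-values refer to the spread among them, which could be technical.

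Library totals were 17928559, 17412383 and 19471762 counts in Prr33-gRNA and 19118010, 17006381 and 17342403 counts in Ctrl-gRNA. In all 14651 genes were tested, of which 3899 were lower and 3740 higher in Prr33-gRNA at an adjusted p under 0.05 (edgeR quasi-likelihood test with Benjamini-Hochberg adjustment). All 8 skeletal muscle markers examined were detected, of which 6 were lower in Prr33-gRNA and 2, Myf5 and Ckm, were higher (edgeR adjusted p under 0.05). Their summed level, most of it Myh3 and Acta1, was 14019 to 14761 CPM (counts scaled to 1000000 per library) in Prr33-gRNA and 25426 to 26054 CPM in Ctrl-gRNA. A difference in muscle transcript level in such bulk samples cannot tell fewer cells of a type from less RNA per cell. The summed leukocyte markers were at 0.849 to 1.55 CPM in Prr33-gRNA and 0.952 to 1.88 CPM in Ctrl-gRNA, with Ptprc, Adgre1 and Cd3e at 0 counts in every library. The 4 fibroblast markers summed to 16.1 to 18.2 CPM in Prr33-gRNA and 185 to 207 CPM in Ctrl-gRNA, most of it Col1a1, which averaged 9.32 CPM in Prr33-gRNA and 178 CPM in Ctrl-gRNA. Dcn averaged 2.99 CPM in Prr33-gRNA and 13.8 CPM in Ctrl-gRNA, and Pdgfra averaged 4.93 CPM in Prr33-gRNA and 6.92 CPM in Ctrl-gRNA. Col1a1, Dcn and Pdgfra were called lower (edgeR adjusted p under 0.05), and Lum was at 0. The part of these marker differences in the results that follow was not tested.

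The end of chromosome 7 is known for its imprinted genes, in which the copy from 1 parent is silenced over long stretches of DNA. It also holds the fast skeletal troponin genes Tnni2, on the centromeric side of Prr33, and Tnnt3, which overlaps the 5′ end of Prr33. Genes that lie next to each other can share enhancers, overlap each other's transcribed DNA or be changed together when a chromosome segment is gained or lost. The members themselves belong to unrelated families: actin-binding proteins, tetraspanins, lysosomal proteins, death receptors, metabolic enzymes, mucins and keratin-associated proteins.

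Prr33 (ENSMUSG00000043795) is a gene on the minus strand at chr7:142491074-142506771. It has 2348 exonic bases in GENCODE M21, which labels it a lincRNA, and RefSeq also labels it a lncRNA. The count table labels it protein coding and gives it a length of 2514 bases. Its body overlaps its neighbours on the opposite strand. Of its GENCODE M21 exonic bases, 1916 lie inside Lsp1 and 335 inside Tnnt3, and 0 of them fall in an exon of either. The promoter window of Prr33 lies wholly inside Tnnt3, outside its exons.

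Promoters are printed for Prr33 and for the 3 members of the deepest falls near it that have an entry in the RefSeq promoter table (build GRCm38.p6, 250 bases before to 50 bases after the annotated 5′ end). They show how the starts of neighbouring genes that were lower together compare in E-boxes, the sites bound by myogenic helix-loop-helix factors. Capitals mark the E-box CANNTG, including its form CAGCTG, each of which reads the same on both strands. The coordinates are chr7:142506722-142507021 on the minus strand for Prr33, chr7:142373697-142373996 on the minus strand for Ifitm10, chr7:142434600-142434899 on the plus strand for Syt8 and chr7:143004796-143005095 on the plus strand for Tspan32. The windows of Ifitm10 and Syt8 are each 1 of 3 in the table for the gene.
Prr33: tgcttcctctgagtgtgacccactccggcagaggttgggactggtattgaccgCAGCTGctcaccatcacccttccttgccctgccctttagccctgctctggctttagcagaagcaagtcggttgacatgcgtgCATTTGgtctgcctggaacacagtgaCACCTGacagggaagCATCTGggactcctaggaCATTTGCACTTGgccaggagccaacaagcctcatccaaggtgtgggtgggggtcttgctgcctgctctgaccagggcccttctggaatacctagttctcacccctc
Ifitm10: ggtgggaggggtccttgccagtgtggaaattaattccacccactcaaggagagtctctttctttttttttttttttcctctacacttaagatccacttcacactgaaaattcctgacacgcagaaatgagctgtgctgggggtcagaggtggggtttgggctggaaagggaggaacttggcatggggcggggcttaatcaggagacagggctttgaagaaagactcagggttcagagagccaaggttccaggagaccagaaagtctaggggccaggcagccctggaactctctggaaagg
Syt8: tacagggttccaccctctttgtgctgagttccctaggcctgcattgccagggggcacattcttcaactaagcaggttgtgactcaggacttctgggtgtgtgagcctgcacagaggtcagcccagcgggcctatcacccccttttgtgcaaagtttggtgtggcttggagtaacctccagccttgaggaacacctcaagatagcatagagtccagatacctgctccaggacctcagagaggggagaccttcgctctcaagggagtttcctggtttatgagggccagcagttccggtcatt
Tspan32: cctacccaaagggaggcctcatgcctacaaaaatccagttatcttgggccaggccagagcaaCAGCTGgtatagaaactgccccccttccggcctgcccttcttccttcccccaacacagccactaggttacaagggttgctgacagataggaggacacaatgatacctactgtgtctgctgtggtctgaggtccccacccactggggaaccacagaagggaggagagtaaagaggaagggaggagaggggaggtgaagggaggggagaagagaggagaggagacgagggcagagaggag
The Prr33 window held 6 CANNTG matches, 1 of which is CAGCTG, and 6 or more matches occurred in 0.670% of the 32851 promoters in the table. Of the 69 promoters of members, 2 held 6 or more (2.90%). The one besides Prr33 belonged to a tested member that did not pass the test. The Tspan32 window held 1 match, a CAGCTG, and the Ifitm10 and Syt8 windows held 0, which says only that these letters are not in those windows. At least 1 CANNTG was present in 76.8% of the 69 promoters of the 54 members with an entry and in 72.3% of all promoters, and CAGCTG in 21.7% of the members' promoters and 16.3% of all. Among tested members lower in Prr33-gRNA, 9 of 13 had an entry, and CANNTG was present in 60.0% of their 15 promoters. Of the 19 that did not pass the test 17 had an entry, and it was present in 73.1% of their 26 promoters. Several promoters can belong to the same gene, so they are not independent.

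Prr33 was lower, but still present, in the counts of every Prr33-gRNA library. Its level was 43.1, 45.8 and 42.4 CPM in Prr33-gRNA, against 61.4, 60.0 and 54.3 CPM in Ctrl-gRNA. All 3 Prr33-gRNA libraries lay below all 3 Ctrl-gRNA libraries. The log2 fold change of Prr33-gRNA over Ctrl-gRNA was -0.42 (SE 0.065, adjusted p = 1.37e-06, edgeR), and the counted level fell by 25.3%. A count over the whole gene does not show whether the guide changed the sequence of the transcript. Of the 2348 exonic bases of Prr33 in GENCODE M21, 1916 lie inside Lsp1 and 335 inside Tnnt3, outside the exons of both. Lsp1 and Tnnt3 averaged 404 and 1663 CPM in Ctrl-gRNA and were lower in Prr33-gRNA, at log2 fold changes of -0.69 and -0.70. With no strand setting stated, their unspliced reads could be counted for Prr33, and the part of such reads in its fall was not tested.

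The members nearest to Prr33 on both sides were lower in Prr33-gRNA, with Ctsd as the exception among those tested within 200 kb. Distances are between the lowest coordinates of the genes, which for minus-strand genes such as Prr33 and Ins2 are their 3′ ends. Lsp1, an actin-binding protein first known from lymphocytes, overlaps the 3′ end of Prr33 from the centromeric side (chr7:142460809-142494867, plus strand). Lsp1 was at 252, 264 and 239 CPM in Prr33-gRNA, against 405, 395 and 413 CPM in Ctrl-gRNA. The groups stood well apart, with a log2 fold change of -0.69 (SE 0.044, adjusted p = 2.60e-15, edgeR). Syt8, a synaptotagmin of the family that acts in membrane trafficking, was at 4.24, 4.26 and 4.30 CPM in Prr33-gRNA, against 7.88, 8.12 and 9.04 CPM in Ctrl-gRNA. Its 3 low values were nearly equal and did not overlap the others, and its log2 fold change was -0.97 (SE 0.16, adjusted p = 6.05e-06, edgeR). Ifitm10, a member of the interferon-induced transmembrane protein family, was at 1.58, 2.16 and 1.90 CPM in Prr33-gRNA, against 5.45, 4.79 and 6.96 CPM in Ctrl-gRNA. The ranges did not overlap, and the log2 fold change was -1.61 (SE 0.22, adjusted p = 1.88e-07, edgeR).

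Ctsd, the lysosomal aspartic protease cathepsin D, lies between Ifitm10 and Syt8 and did not pass the test. It was at 672, 668 and 660 CPM in Prr33-gRNA, against 634, 637 and 667 CPM in Ctrl-gRNA. The groups overlapped in 1 Ctrl-gRNA library, and the log2 fold change was 0.04 (SE 0.040, adjusted p = 0.373, edgeR). Ctsd had the highest level per length of all members, at 283 FPKM in Prr33-gRNA and 273 FPKM in Ctrl-gRNA. It shares 808 of its 2351 exonic bases with Gm49369, a read-through gene model with 0 counts in every library, and Ifitm10 shares 215 bases with the same model. Scaled by library size alone, Ctsd was called higher, at a log2 fold change of 0.13.

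On the telomeric side the nearest tested member was Ins2, a preproinsulin gene known from pancreatic beta cells (chr7:142678656-142743381, minus strand). Ins2 was at 2.39, 2.32 and 1.65 CPM in Prr33-gRNA, against 5.62, 5.21 and 5.23 CPM in Ctrl-gRNA. The groups did not overlap, and the log2 fold change was -1.34 (SE 0.22, adjusted p = 2.83e-06, edgeR). The beta cell genes Ins1, Pdx1 and Iapp had 0 counts in every library, and the 4 beta cell markers summed to 0.109 to 0.332 CPM in Prr33-gRNA and 0 to 0.0595 CPM in Ctrl-gRNA.

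Tspan32, a tetraspanin known from blood cells, was the next tested member towards the telomere, 514 kb from Prr33, and had the deepest fall of all members. It was at 4.29, 2.87 and 2.60 CPM in Prr33-gRNA, against 10.7, 12.3 and 12.4 CPM in Ctrl-gRNA. The highest Prr33-gRNA library lay well below the lowest Ctrl-gRNA library, and the log2 fold change was -1.86 (SE 0.17, adjusted p = 3.11e-11, edgeR). Syt8, Lsp1, Prr33, Ins2 and Tspan32 formed the longest unbroken run of tested members with the same call, 5 lower genes in a row. The run skips the names left out of the selection and the noncoding genes. Tnni2, the fast skeletal troponin I gene centromeric of Prr33, was lower as well, at a log2 fold change of -0.75. So was Tnnt3, the fast skeletal troponin T gene that overlaps the 5′ end of Prr33, at -0.70. Mrpl23, between Prr33 and Ins2, was at -0.07 and did not pass the test. Of the tested noncoding genes between Prr33 and Ins2, Nctc1, H19 and Igf2os were lower, at -0.84, -0.57 and -3.76. Gm33148, also there, was at 0.08 and did not pass the test.

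Farther out on the centromeric side lie Dusp8, a dual-specificity phosphatase that acts on stress-activated kinases, and Mob2, a binding partner of NDR kinases. Dusp8 was at 32.5, 34.5 and 33.1 CPM in Prr33-gRNA, against 41.9, 44.0 and 37.2 CPM in Ctrl-gRNA. The groups did not overlap, and the log2 fold change was -0.30 (SE 0.073, adjusted p = 0.000844, edgeR). Mob2 was at 33.1, 38.0 and 34.0 CPM in Prr33-gRNA, against 34.0, 33.0 and 32.0 CPM in Ctrl-gRNA. Its groups overlapped, with a log2 fold change of 0.09 (SE 0.075, adjusted p = 0.351, edgeR), although scaled by library size alone it was called higher at 0.18.

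**Figure D1:**
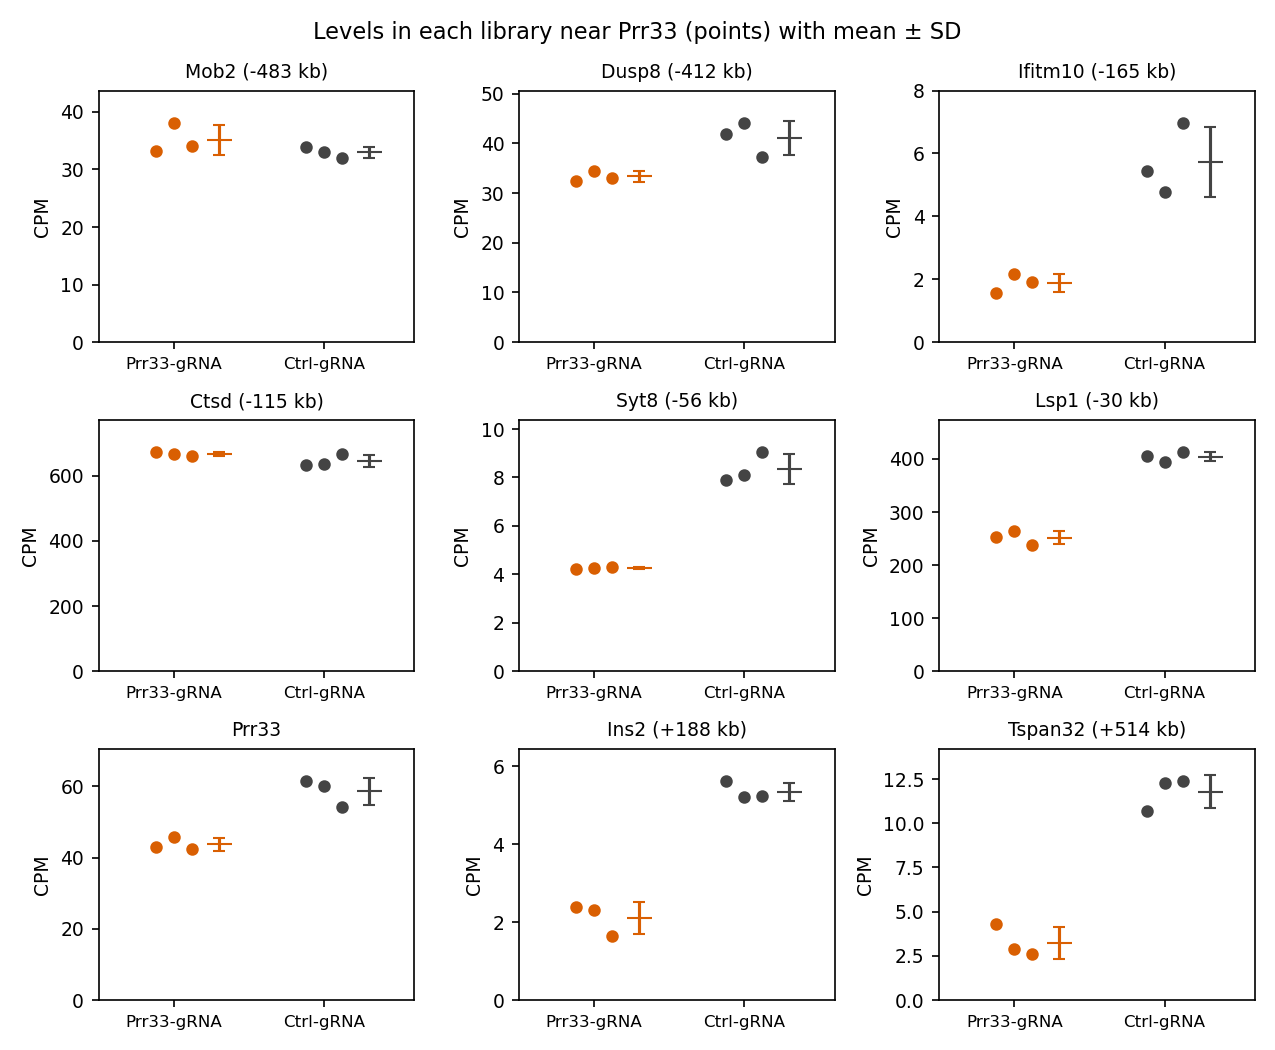
Level (CPM, linear axis from 0) of Prr33 and of the 8 tested members nearest to it, in order of position, in each of 3 Prr33-gRNA and 3 Ctrl-gRNA libraries; points are libraries and the dash with bars is the mean ± SD. Ifitm10, Syt8, Lsp1, Prr33, Ins2, Tspan32 and Dusp8 were lower in all 3 Prr33-gRNA libraries, while Ctsd and Mob2 overlapped.

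The counts of the tested members within 200 kb were also divided by the count of Prr33 in the same library. The count of Lsp1 divided by that of Prr33 was 5.75 ± 0.113 in Prr33-gRNA and 6.93 ± 0.579 in Ctrl-gRNA (SD, n = 3 each). The ratio of Ifitm10 to Prr33 was 0.0428 ± 0.00552 in Prr33-gRNA and 0.0989 ± 0.0257 in Ctrl-gRNA (SD, n = 3 each). The ratio of Ins2 to Prr33 was 0.0484 ± 0.00852 in Prr33-gRNA and 0.0916 ± 0.00476 in Ctrl-gRNA (SD, n = 3 each). These 3 ratios and that of Syt8 were lower in Prr33-gRNA, and the ratio of Ctsd was higher, with no overlap between groups in any of the 5. Each gave p = 0.1 in a two-sided exact permutation test, the smallest p that 3 against 3 libraries allow, and 0.1 after Benjamini-Hochberg adjustment over the 5 ratios. That test could not pass 0.05, so it cannot decide whether the falls differed in size. The divisor Prr33 was itself lower in Prr33-gRNA, and Ctsd alone did not pass the edgeR test.

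Of the 70 members, 37 had enough counts to be tested, and 18 of these passed the test: 13 were lower and 5 higher in Prr33-gRNA. That is 48.6% of tested members called, against 52.1% of all genes tested. The lower calls made up 35.1% of tested members, against 26.6% of all genes, and the higher calls 13.5%, against 25.5%. The groups did not overlap in 19 of the 37 tested members, or 51.4%, against 57.9% of all genes. A fall of at least 2-fold was called in Ifitm10, Ins2 and Tspan32, or 8.11% of tested members against 7.96% of all genes, and such a rise in Shank2, or 2.70% against 2.91%. The median log2 fold change of tested members was -0.06, and that of all genes tested was -0.0023.

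Members lower in Prr33-gRNA lay on both sides of the gene. Among all genes tested 26.6% were lower and 25.5% higher, and in the rest of chromosome 7 34.7% and 19.1%. On the centromeric side 19 of 41 members were tested, with a median log2 fold change of -0.09. Of these, 7 were lower (36.8%), 1 was higher (5.26%) and 11 did not pass the test. On the telomeric side 17 of 28 members were tested, of which 5 were lower (29.4%), 4 were higher (23.5%) and 8 did not pass the test. The telomeric median was -0.04. That median was 0.027 without Ctrl-gRNA replicate 2, 0.0090 without Prr33-gRNA replicate 3 and -0.083 without Prr33-gRNA replicate 2, so its sign rests on single libraries. The members on 1 side are not replicates of each other, and no test of the difference between sides was made. Without scaling factors, by library size alone, 11 members were lower and 12 higher, against 21.2% of all genes lower and 34.1% higher. On that scale the centromeric side had 6 lower and 5 higher members and the telomeric side 4 lower and 7 higher, and the median of all genes moved by 0.09.

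By distance, the share of lower members was highest in the group nearest to Prr33, which is small. Over all genes tested, 26.6% were lower and 25.5% higher, which is the scale for the counts that follow. Within 200 kb, 4 of 5 tested members were lower and 0 were higher, with a median log2 fold change of -0.97. Within 500 kb the count was 5 lower of 7 tested, with a median of -0.69. There, 0 were higher by edgeR at an adjusted or unadjusted p under 0.05, by DESeq2 or by limma-voom. Scaled by library size alone, however, Ctsd and Mob2 were called higher by edgeR, at 0.13 and 0.18. From 200 kb to 1 Mb, 2 of 7 tested members were lower and 1 was higher, with a median of -0.07. Beyond 1 Mb, 6 of 24 were lower and 4 were higher, with a median of -0.0015. With the left-out protein-coding names put back, 7 of 10 genes tested within 500 kb and 10 of 35 beyond it were lower. Measured between 5′ ends, a choice added after the data were seen, Ins2 lies 237 kb and Tspan32 498 kb from Prr33. The counts are then 3 lower of 4 tested within 200 kb, 6 of 8 within 500 kb and 3 of 8 from 200 kb to 1 Mb. These are descriptions of neighbours that share a chromosome stretch and, for several, overlapping transcripts, and no test over distance was made.

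**Figure D2:**
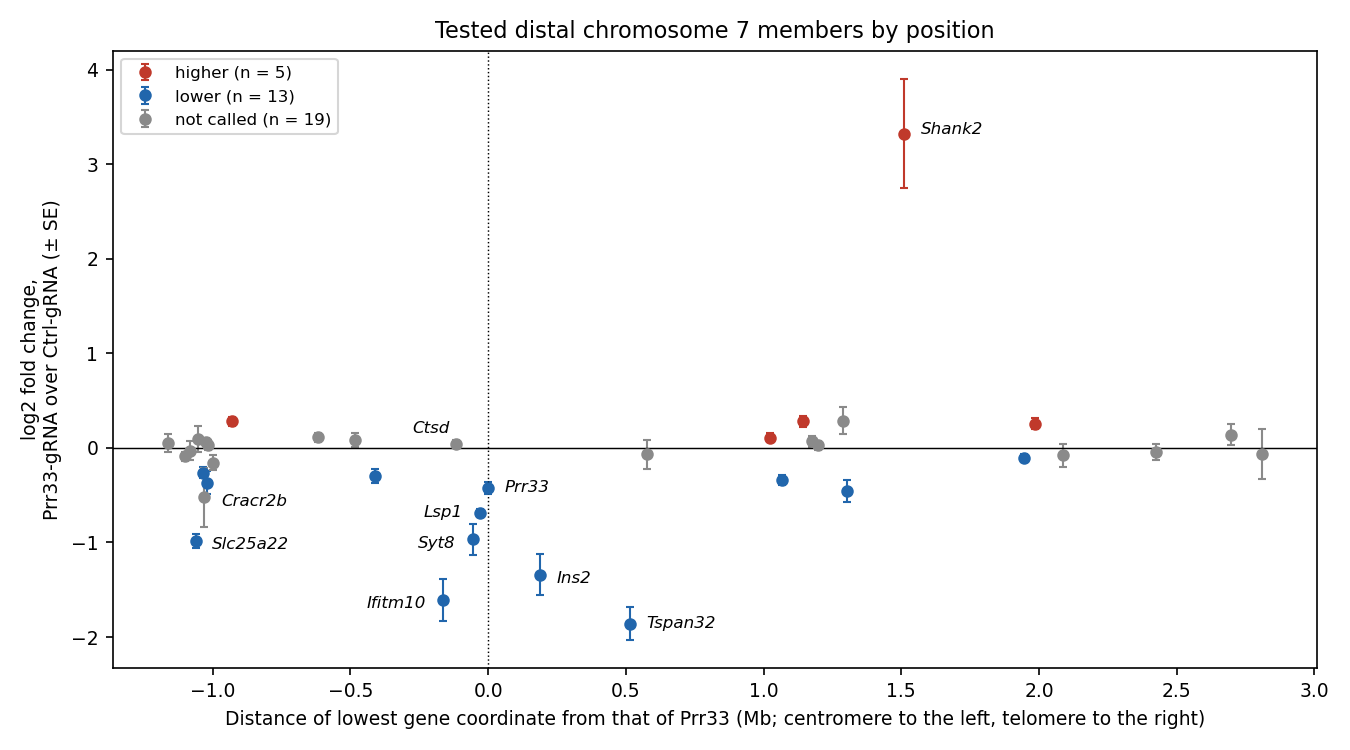
Log2 fold change of Prr33-gRNA over Ctrl-gRNA (± SE from the edgeR fit) for the 37 tested members against the distance of the gene's lowest coordinate from that of Prr33 in Mb, with the centromere to the left. Blue points are 13 lower, red 5 higher and grey 19 members that did not pass the test; the deepest falls, Ifitm10, Ins2 and Tspan32, lie close to the dotted line at Prr33, and Shank2 stands alone at 3.32.

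Other stretches of the genome are set beside these counts. In the rest of chromosome 7, 34.7% of 865 tested protein-coding genes were lower and 19.1% higher, with a median log2 fold change of -0.07, beside -0.06 for the members. On chromosome 14, 90.2% of 400 tested protein-coding genes were lower, with a median of -0.90. In the chromosome 15 stretch from 76.7 to 79.0 Mb, 59.5% of 37 were lower, with a median of -0.46. Chromosome 14 and this stretch were chosen with earlier results of these data known, so they do not give an ordinary range for the genome. Over all 12067 tested protein-coding genes 28.3% were lower and 28.8% higher, with a median of 0.01. Along chromosome 7 in steps of 10 Mb the median ranged over -0.18 to 0.31, where the highest came from a step of 12 genes and the next was 0.11. The last step, which begins at Prr33, held 25 tested genes with a median of -0.07.

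**Figure D3:**
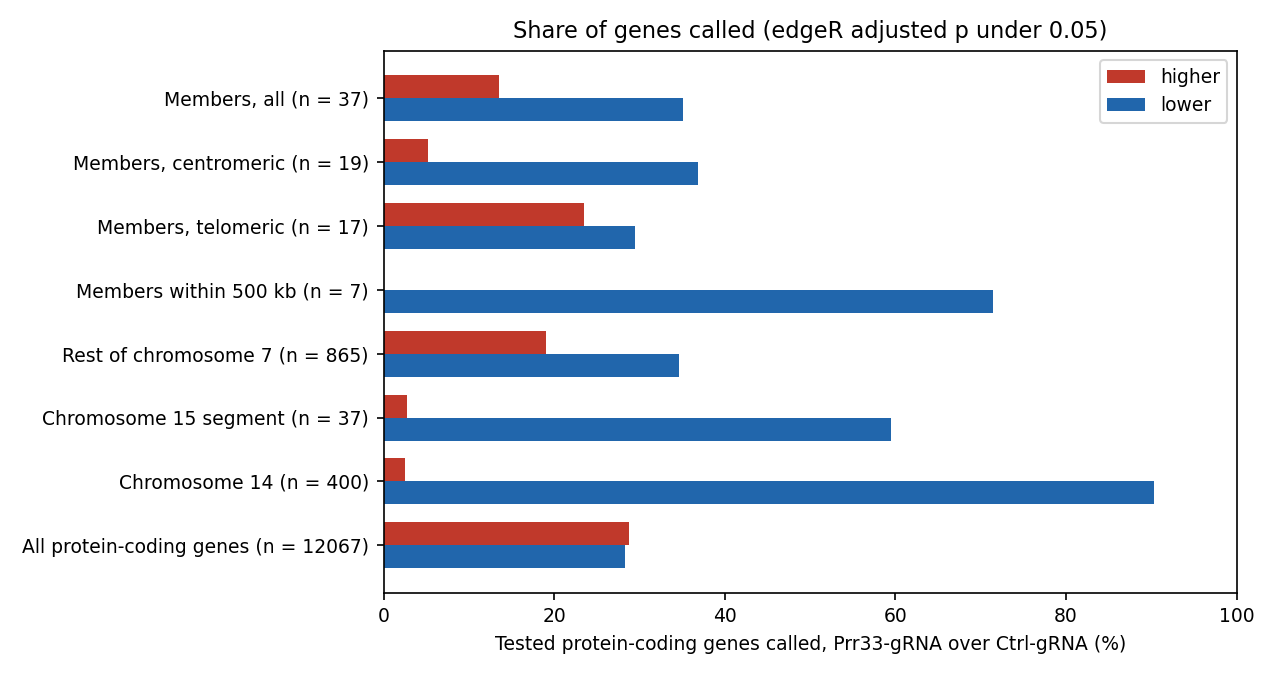
Share of tested genes called lower and higher in Prr33-gRNA (percent, edgeR adjusted p under 0.05) for the members, each side, the members within 500 kb, and the comparison sets. Members as a whole had 35.1% lower and 13.5% higher, the rest of chromosome 7 had 34.7% and 19.1%, and chromosome 14 had 90.2% lower.

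**Figure D4:**
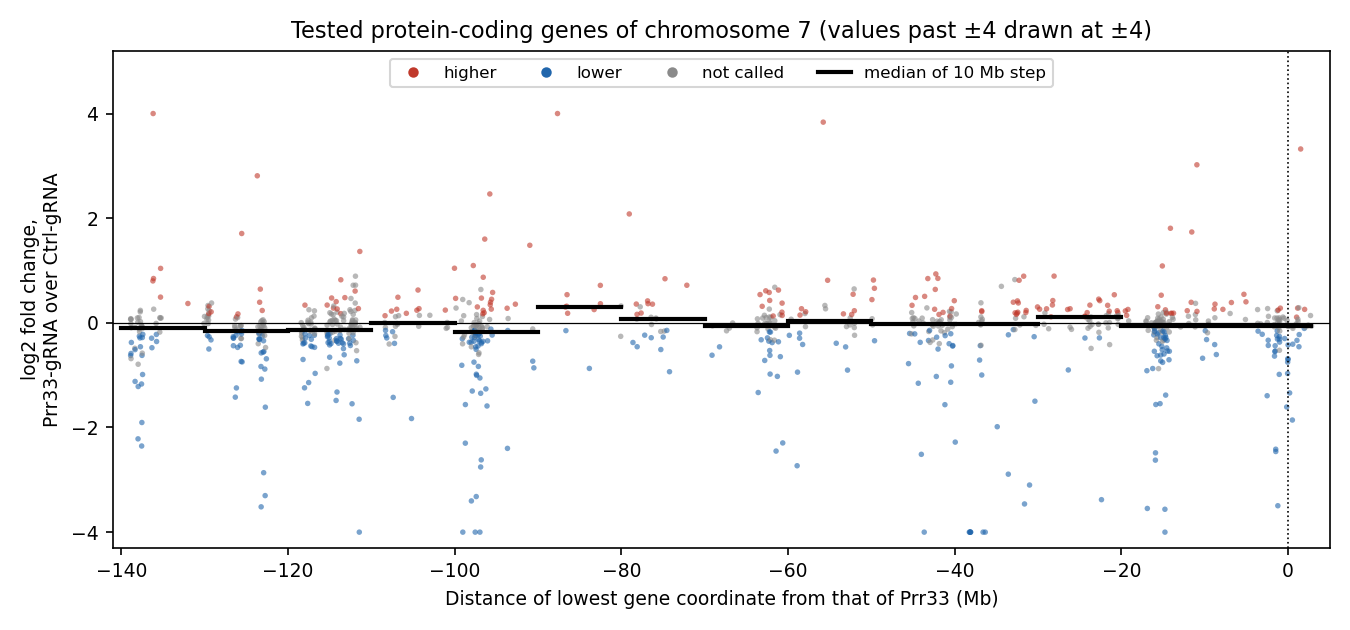
Log2 fold change of Prr33-gRNA over Ctrl-gRNA for 911 tested protein-coding genes along chromosome 7 by distance from Prr33 in Mb; each point is a gene, horizontal lines are medians of 10 Mb steps, and 15 values past ±4 are drawn at the edge. The medians ranged over -0.18 to 0.31.

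Of the 4 metabolic enzymes among the members 3 were lower, beside 26.6% of all genes tested, a count too small to set the group apart. Slc25a22, a mitochondrial glutamate carrier near the centromeric edge of the window, was at 28.1, 30.2 and 23.4 CPM in Prr33-gRNA, against 51.5, 54.1 and 55.8 CPM in Ctrl-gRNA. The groups did not overlap, and the log2 fold change was -0.98 (SE 0.077, adjusted p = 9.63e-13, edgeR). Nadsyn1, which makes NAD, was at 11.7, 12.3 and 10.1 CPM in Prr33-gRNA, against 15.4, 16.5 and 14.8 CPM in Ctrl-gRNA. Its groups were also separate, at a log2 fold change of -0.46 (SE 0.11, adjusted p = 0.00105, edgeR). Pnpla2, the triglyceride lipase of fat and muscle, averaged 72.2 ± 1.67 CPM in Prr33-gRNA and 86.5 ± 5.51 CPM in Ctrl-gRNA (SD, n = 3 each), a log2 fold change of -0.26. Taldo1, transaldolase of the pentose phosphate pathway, was at -0.09 and did not pass the test.

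Of the 5 actin and cytoskeleton members tested 2 were lower and 2 higher, beside 26.6% of all genes lower and 25.5% higher. Beside Lsp1, Cttn, the actin-branching protein cortactin, was at 221, 209 and 207 CPM in Prr33-gRNA, against 233, 224 and 228 CPM in Ctrl-gRNA. The groups were adjacent without overlap, and the log2 fold change of -0.11 passed the test narrowly (SE 0.044, adjusted p = 0.0441, edgeR), with a call that was lost in 10 of 16 other fits. Ppfia1, the adhesion-site scaffold liprin-alpha-1, was at 81.7, 77.5 and 84.0 CPM in Prr33-gRNA, against 67.0, 70.5 and 66.1 CPM in Ctrl-gRNA. It was higher in all 3 Prr33-gRNA libraries, at a log2 fold change of 0.26 (SE 0.056, adjusted p = 0.000218, edgeR).

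Shank2, a scaffold protein known from excitatory synapses, had the highest fold change of the members at the lowest level per length. Its counts were 22, 23 and 24 in Prr33-gRNA, against 2, 4 and 0 in Ctrl-gRNA, or 69 and 6 reads in all. The groups did not overlap, but Shank2 passed the count filter only through its Prr33-gRNA libraries. That limits what the separation and the p-value show. The fitted log2 fold change was 3.32 (SE 0.58, adjusted p = 1.03e-05, edgeR). That value was 4.28 without Ctrl-gRNA replicate 2 and 0.14 on the log2(FPKM + 1) scale, since the level was 0.113 FPKM in Prr33-gRNA and 0.0108 FPKM in Ctrl-gRNA.

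In the endosome, lysosome and secretory group, 7 of 8 members were tested, of which Syt8 was lower and Ap2a2 higher. Among all genes tested, 26.6% were lower and 25.5% higher. Ap2a2, a subunit of the clathrin adaptor AP-2, was at 224, 233 and 233 CPM in Prr33-gRNA, against 177, 193 and 198 CPM in Ctrl-gRNA. All 3 Prr33-gRNA values lay above the others, at a log2 fold change of 0.28 (SE 0.047, adjusted p = 5.23e-06, edgeR), and it was the only centromeric member called higher in that fit. The other 5 tested did not pass the test: Ctsd, the endosomal Toll-receptor adaptor Tollip at 0.11, Chid1 at -0.16, the oxysterol-binding protein relative Osbpl5 at 0.03 and the endolysosomal cation channel Tpcn2 at 0.14.

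Of the death receptors and adaptors 4 of 5 were tested, and 1 was higher, beside 25.5% of all genes tested. That gene, Tnfrsf22, is a mouse decoy receptor for the death ligand TRAIL. It was at 66.8, 63.6 and 67.5 CPM in Prr33-gRNA, against 54.4, 55.6 and 52.7 CPM in Ctrl-gRNA. The groups did not overlap, and the log2 fold change was 0.28 (SE 0.059, adjusted p = 0.000141, edgeR). Its neighbour and relative Tnfrsf23 was at 0.07, the adaptor Fadd at -0.08 and the death-domain protein Pidd1 at 0.09, none of which passed the test. Tnfrsf26 had 6, 5 and 10 counts in Prr33-gRNA and 8, 15 and 14 counts in Ctrl-gRNA and was too low to test.

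The members that act on RNA, chromatin and translation split as well, with Polr2l and Cars lower, Nap1l4 higher and LTO1 at -0.04 without passing the test. Here too the scale is 26.6% of all genes tested lower and 25.5% higher. Cars, the cysteinyl-tRNA synthetase, was at 90.6, 88.8 and 92.1 CPM in Prr33-gRNA, against 116, 119 and 107 CPM in Ctrl-gRNA. Its groups were separate, at a log2 fold change of -0.34 (SE 0.052, adjusted p = 1.67e-06, edgeR). Nap1l4, a histone chaperone, was at 209, 206 and 204 CPM in Prr33-gRNA, against 185, 193 and 195 CPM in Ctrl-gRNA. That is a small rise with no overlap, at a log2 fold change of 0.11 (SE 0.044, adjusted p = 0.0390, edgeR), and the call was lost in 3 of 16 other fits. Polr2l, a small subunit shared by the RNA polymerases, was at 24.0, 24.0 and 21.1 CPM in Prr33-gRNA, against 31.6, 34.6 and 22.9 CPM in Ctrl-gRNA. It was the only called member whose groups overlapped, through the lowest Ctrl-gRNA library, and its log2 fold change of -0.37 (SE 0.12, adjusted p = 0.0236, edgeR) lost its call in 8 of 16 other fits, among them every one that left out a library other than Ctrl-gRNA replicate 3.

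Of the 3 tetraspanins among the members only Tspan32 passed the test, beside 52.1% of all genes tested, and Cd151 and Tspan4 were at 0.06 and 0.03. Cd81, a tetraspanin of the window that was left out by name, was also lower, at -0.41 (adjusted p = 8.80e-10, edgeR). The sensory-neuron receptor relatives Mrgpre and Mrgprf were at 0.29 and -0.06 and did not pass. Of the members in no role group, Tmem80 was at 0.05, Gatd1 at -0.03, the taste-cell channel Trpm5 at -0.07 and the calcium-channel regulator Cracr2b at -0.52 (SE 0.31), and none of these passed. Cracr2b shares 50.8% of its exonic bases with the antisense gene Gm10575, Trpm5 shares 3.44% with Tssc4 on the opposite strand, LTO1 shares 15.6% with Ccnd1 and Tspan4 shares 13.4% with Chid1. With no strand setting stated for the counting, reads of such pairs cannot be told apart. In all, 21 members share exonic bases with another gene in GENCODE M21, 15 of them tested.

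The remaining 33 members had too few counts to be tested, and 22 of these had 0 counts in every library. Between Dusp8 and Ifitm10 lie 14 of the 33, of which 5 are named Krtap5, the keratin-associated proteins of hair, and together they had 1 count over 6 libraries. The tyrosine hydroxylase gene Th, the growth factor genes Fgf3, Fgf4 and Fgf15, the mucins Muc2 and Muc5ac, Cend1 and Mrgprg were also at 0, and so was the read-through model Gm49369. For all but Gm49369, a count of 0 allows a level of up to 3 counts, which was 0.150 to 0.182 CPM in these libraries. No limit can be given for Gm49369, since all of its 1023 exonic bases are shared with Ctsd or Ifitm10 on the same strand. The other 11 had at most 15 counts in a library: Eps8l2, Muc6, Muc5b, Brsk2, Gm45618, Gm49394, Tnfrsf26, Acte1, Ano1, Smim38 and Mrgprd. Among them Eps8l2, an actin-regulating protein, had 0, 0 and 0 counts in Prr33-gRNA and 3, 2 and 3 in Ctrl-gRNA, and Gm49394 had 0, 0 and 0 in Prr33-gRNA and 3, 4 and 1 in Ctrl-gRNA. Of the exonic bases of Gm49394, 75.9% are shared with Igf2 on the same strand and 24.1% with the antisense gene Igf2os, so its counts are uncertain. Epithelial markers, which mucin-producing cells would carry, summed to at most 0.166 CPM in Prr33-gRNA and 0.238 to 0.378 CPM in Ctrl-gRNA, with 3 of 5 at 0 throughout.

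The members' share of all reads overlapped between the groups, at 0.301 to 0.311% in Prr33-gRNA and 0.302 to 0.306% in Ctrl-gRNA. Ctsd made up 22.3 to 22.5% of the members' reads in Prr33-gRNA and 20.2 to 21.2% in Ctrl-gRNA. Lsp1 made up 8.13 to 8.82% in Prr33-gRNA and 12.6 to 13.1% in Ctrl-gRNA. The deepest falls near Prr33 belonged to genes of low level: of the 10 members under 10 CPM, Ifitm10, Syt8, Ins2 and Tspan32 were lower and Shank2 higher, against 22.5% of all genes of that level lower and 13.0% higher. Of the 11 members from 10 to 50 CPM, 4 were lower and 0 higher by edgeR, also at an unadjusted p under 0.05, by DESeq2 and by limma-voom. Among all genes of that level 27.3% were lower and 27.4% higher. Scaled by library size alone, at least Mob2 among these members was called higher, at 0.18. Of the 16 members at 50 CPM or more, 5 were lower and 4 higher, against 30.4% of all such genes lower and 37.2% higher.

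The window also holds genes that are not members. Of the 14 left-out protein-coding names 9 were tested, of which 5 were lower and 0 higher by edgeR, also at an unadjusted p under 0.05, by DESeq2 and by limma-voom. Of the 72 genes of other types 9 were tested, with 4 lower and 0 higher by the same tools and thresholds. Beside these small counts, 26.6% of all genes tested were lower and 25.5% higher by edgeR. At the centromeric edge of the window, the members just inside were Tmem80, at 17.7 CPM in Prr33-gRNA and 17.1 CPM in Ctrl-gRNA, and the untested Eps8l2, whose counts are given above. Just outside were Deaf1, at 27.0 CPM in Prr33-gRNA and 22.8 CPM in Ctrl-gRNA, and Irf7, at 36.2 CPM in Prr33-gRNA and 408 CPM in Ctrl-gRNA.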

How the data were processed

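Gene counts and FPKM of 6 total-RNA libraries were used as deposited. Per the submitters' processing notes, CASAVA, HISAT2 2.0.5 and featureCounts 1.5.0-p3 were used with mm10, and the authors deposited raw counts and, separately, FPKM values (fragments per gene length and library size). The gene length column of the deposited file was used only as an annotation. Strand setting and read filters are not given in the sources used here.

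Counts were filtered with filterByExpr, scaled by TMM and tested with edgeR 4.0.16 (quasi-likelihood, robust; R 4.3.3) over all genes, Prr33-gRNA over Ctrl-gRNA, with Benjamini-Hochberg adjustment and a threshold of 0.05. CPM are counts over the TMM-scaled library size. SE is the log2 fold change divided by the square root of F. Alternatives were DESeq2 1.42.0, limma 3.58.1 (voom, and log2(FPKM + 1) or log2(FPKM + 0.1)), other scaling, filters, thresholds, windows and distances, a replicate block and leaving out each library. Libraries of a group differed by a chi-square of 2.88 to 5.67 per gene, so none was treated as a second deposit of another; this does not show that they are separate cultures. Limits for counts of 0 cover counting error only.

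The members and gene lists were chosen with earlier results of these data known. Per-library values are given for Prr33, for tested members within 500 kb of it, and on each side for up to 6 called members of the deepest fall and 6 of the highest rise; others are given by fold change, range or count. All 70 members had the same start and end in GENCODE M21, which gave exon overlaps. Exonic lengths were not always the same. Prr33 has 2348 bases in GENCODE M21 and 2514 in the deposited gene length column, and Tspan4 has 2178 and 2601. The overlaps therefore describe the GENCODE M21 models, which can differ from those counted. Promoters were matched by symbol to RefSeq. Sequences of the guide and of proteins are not used here.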

Additional observations from a re-analysis of the deposited data

How the results depend on the processing

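Prr33 was lower in all 16 other fits, at log2 fold changes of -0.47 to -0.33 with a highest adjusted p of 0.000626. Of the 19 members given by library, 14 kept their call in all 16 fits and 0 reversed; Polr2l, Cttn and Nap1l4 lost theirs in some, and Ctsd and Mob2 gained one by library size alone. For the lists, the cause of the moves below was not tested. Library size alone gave 12 members higher, 5 centromeric and 7 telomeric, and medians of 0.027 for all members, 0.00048 for the centromeric and 0.046 for the telomeric side. Limma gave a median of -0.052 on log2(FPKM + 0.1), and on log2(FPKM + 1) one of -0.028 for all members and -0.028 for the telomeric side. Without a count filter, 31 members did not pass, 15 of them telomeric, and the medians were -0.074 for all, -0.048 centromeric and -0.070 telomeric. With the window begun 1 Mb nearer the centromere, 23 members were lower, the centromeric side had 17 lower, 2 higher and 17 not passing, and the medians were -0.078 for all and -0.16 centromeric. With the left-out names kept, 8 telomeric genes were lower and the medians were -0.075 for all, -0.16 centromeric and -0.065 telomeric. Without the members that share exonic bases with another gene, an alternative chosen after seeing the data, 9 members did not pass, the centromeric side had 0 higher and 6 not passing, the telomeric side had 3 lower and 3 not passing, and the medians were -0.046 for all and 0.068 telomeric; fewer genes are counted there. Leaving out 1 library at a time gave medians of -0.092 to -0.022 for all members, -0.12 to -0.049 centromeric and -0.083 to 0.027 telomeric, where the telomeric median turned positive without Ctrl-gRNA replicate 2 or Prr33-gRNA replicate 3. The same-numbered libraries did not deviate together, with correlations of -0.01, -0.01 and 0.02, so the numbers were not taken as pairs. A replicate block gave 13 members lower and 5 higher and Prr33 at -0.42, and over all genes 3975 lower and 3811 higher. At this depth, members under 3 counts, 0.150 to 0.182 CPM, could not be assessed.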
